A study of Mus musculus with 7 samples.

Results

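The genes described here make the class II antigen-presenting molecule of the mouse, its chaperones and its transcriptional master regulator. They were taken by symbol: H2-Aa, H2-Ab1, H2-Eb1, H2-DMa, H2-DMb1, H2-DMb2, H2-Oa, H2-Ob, Cd74 and Ciita. The list was drawn up with earlier results of these data known, so shares over all genes given beside it are descriptive. All 10 were present among the 17209 genes of the count table. The libraries came from muscularis macrophages, the macrophages of the gut muscle layer, sorted as CX3CR1-GFP+ cells from peeled small intestine of C57BL6/J mice. RNA was taken 24 h after pMCAO surgery, which the series title calls stroke (libraries pMCAO 1 to pMCAO 3), or 24 h after sham surgery (Sham 1 to Sham 4). The labels name no age, the description of pMCAO 3 names a pool, and no label says whether the other libraries came from separate animals. The titles call the sham libraries biological replicates and the pMCAO libraries only replicates. The p-values therefore measure the spread between these samples, some of which may be technical.

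A class II molecule is a pair of an alpha and a beta chain that carries peptides from the endosome to the cell surface and shows them to CD4+ T cells. The new pair is held in the endoplasmic reticulum by the invariant chain, encoded by Cd74, which keeps the groove closed until endosomal proteases remove it. The DM chaperone (H2-DMa with H2-DMb1 or H2-DMb2) then exchanges the last fragment of the invariant chain for a peptide, and the DO molecule (H2-Oa with H2-Ob) restrains DM. CIITA binds no DNA itself. It docks on the factors RFX, CREB and NF-Y, which sit on the X and Y boxes upstream of class II genes, and its amount sets how strongly the group is transcribed. C57BL/6 mice carry a defective H2-Ea gene, so the beta chain encoded by H2-Eb1 lacks its alpha partner in this strain, while H2-Aa and H2-Ab1 encode the A molecule that it does display.

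The shared X and Y boxes can be read in the promoters. RefSeq windows of GRCm38.p6, from 250 bases before to 50 bases after an annotated start, were searched on both strands for TGATTGG, the core of the Y box (an inverted CCAAT box), and for GNAAC, the core of the X box, 15 to 45 bases upstream of it on the same strand. The letters and distances were chosen with these promoters in view. The following stretches are the 6 that held a match to TGATTGG, shown so that their X and Y letters can be compared. They run 5′ to 3′ on the strand of the gene, with the matches in capitals.
H2-Aa: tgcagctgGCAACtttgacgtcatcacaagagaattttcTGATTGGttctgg
H2-Eb1: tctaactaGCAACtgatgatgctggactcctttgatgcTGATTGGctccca
H2-DMb1: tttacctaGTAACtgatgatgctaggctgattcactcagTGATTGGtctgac
H2-DMb2: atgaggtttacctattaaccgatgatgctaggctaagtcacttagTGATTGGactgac
H2-Oa: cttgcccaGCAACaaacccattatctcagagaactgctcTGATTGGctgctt
H2-Ob: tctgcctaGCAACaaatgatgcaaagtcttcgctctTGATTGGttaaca
The stretches lie at chr17:34287861-34287912 (H2-Aa, minus strand), chr17:34305768-34305818 (H2-Eb1), chr17:34153089-34153140 (H2-DMb1), chr17:34145112-34145169 (H2-DMb2), chr17:34092295-34092346 (H2-Oa) and chr17:34238810-34238858 (H2-Ob), the last 5 on the plus strand. The pair was found in 5 of the 8 windows of these genes, with 23 to 26 bases between X and Y, and in 0.852% of all 32851 windows. TGATTGG alone was in 6 of the 8 windows and in 7.82% of all windows, against 84.8% for GNAAC alone. H2-DMb2 held TGATTGG with no GNAAC at that distance, and the 2 windows of H2-DMa held no TGATTGG. H2-Ab1, Cd74 and Ciita had no window in the table. A match is a description of letters and says nothing of binding in these cells.

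The class II transcripts had a lower summed share of the counts in each pMCAO library than in any sham library. The 10 genes together took 0.383%, 0.729% and 0.391% of all counts in pMCAO 1 to pMCAO 3, against 1.31%, 1.96%, 1.10% and 1.36% in Sham 1 to Sham 4. The group means were 0.501% ± 0.198 (SD, n = 3) after pMCAO and 1.43% ± 0.366 (SD, n = 4) after sham surgery. In sorted bulk RNA, fewer class II-bearing cells and less class II RNA per cell cannot be told apart. Library totals were 12685941 to 21680302 counts after pMCAO and 18873893 to 34432716 after sham surgery. All 20 markers of macrophages in general were counted in all 7 libraries, among them Csf1r, which encodes the receptor for colony-stimulating factor, at 1813 CPM after pMCAO and 2316 CPM after sham surgery (group means).

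All 10 genes had lower means after pMCAO, as did 51.4% of all genes by the sign of the log2 change, and all 10 changes lay below -0.9 (6.83% of all genes). The median of their log2 changes was -1.17, against -0.02 over all genes. Levels are CPM, counts relative to the library total after TMM scaling between libraries, and changes are log2 of pMCAO over sham. By the edgeR quasi-likelihood test adjusted over all genes at 0.05, H2-Eb1 and Ciita fell and the other 8 did not pass. Among all genes, 0.0988% passed in either direction and 0.0291% passed as lower. At an unadjusted p under 0.05, 8 of the 10 were lower, against 6.47% of all genes (13.4% in either direction). The exceptions were H2-DMb2 and H2-Oa. For 7 of the 10 the highest pMCAO library lay below the lowest sham library, against 6.58% of all genes. Groups overlapped for H2-DMb1, H2-DMb2 and H2-Oa.

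**Figure D1:**
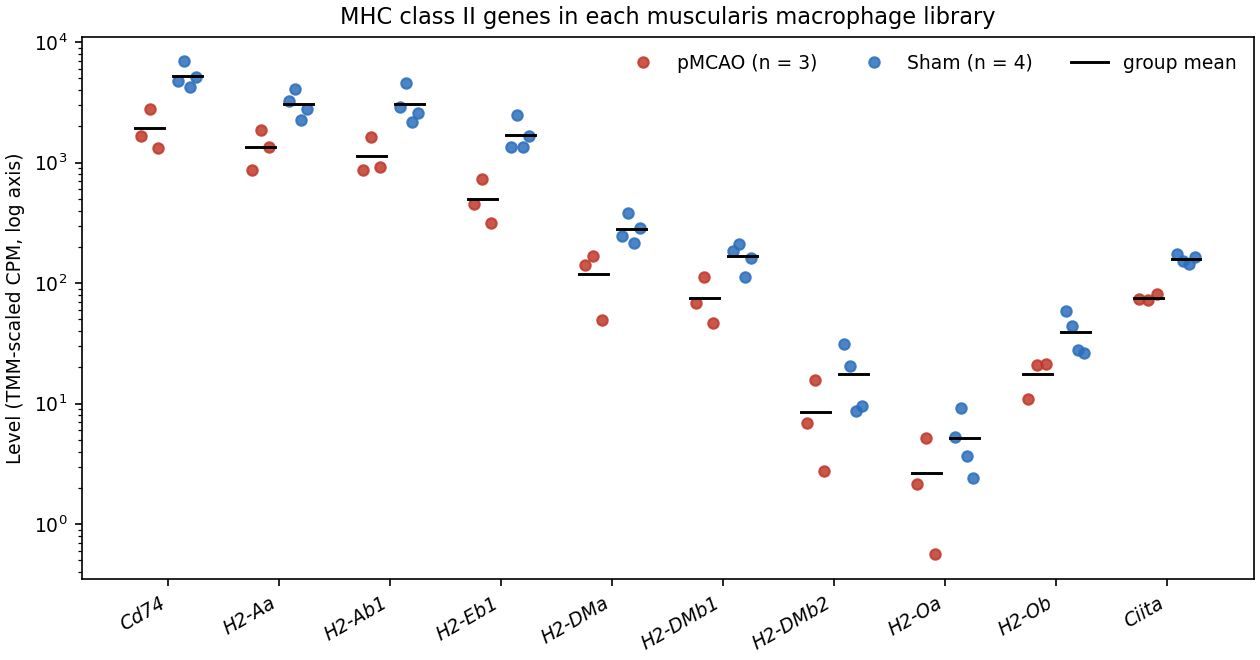
Level of each of the 10 genes in each library, in TMM-scaled CPM on a log axis, with pMCAO libraries (red, n = 3) left of sham libraries (blue, n = 4) and bars at the group means. Cd74 lies highest, with 1329 to 2808 CPM after pMCAO and 4262 to 6921 CPM after sham surgery, and the points of Ciita are the most tightly grouped.

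Of the chains of the peptide-binding molecule, H2-Eb1 had the largest log2 change, although H2-Ab1 and H2-Aa differed by more CPM. H2-Eb1 (ENSMUSG00000060586, chromosome 17, 34305867 to 34316674 of GRCm38) had 450.4, 727 and 313 CPM in pMCAO 1 to pMCAO 3, against 1350.2, 2475, 1338 and 1673 CPM in Sham 1 to Sham 4. The groups were 611 CPM apart at their nearest libraries, pMCAO 2 and Sham 3. The log2 change was -1.78 (SE 0.29, edgeR adjusted p = 0.0319), so that the pMCAO mean was 29.1% of the sham mean. Its adjusted p over 18 other settings ran between 2.80e-07 with DESeq2 and 0.627 with a score of stromal markers as a covariate. H2-Eb1 passed in 14 of these 18. Among them, the setting without a low-count filter repeats the main fit, since that filter removed no gene. Without Sham 4 (adjusted p = 0.0983), pMCAO 1 (0.218) or pMCAO 3 (0.130) the call was lost, with log2 changes of -1.79, -1.72 and -1.54.

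The chains of the A molecule had lower means too, short of the threshold. H2-Ab1, the beta chain (chromosome 17, 34257689 to 34269419), had 864, 1641 and 926 CPM in pMCAO 1 to pMCAO 3, against 2876, 4541, 2157 and 2602 CPM in Sham 1 to Sham 4. Its log2 change was -1.41 (SE 0.28, edgeR adjusted p = 0.0615), past the threshold in 5 of 18 other settings. H2-Aa, the alpha chain (chromosome 17, 34282744 to 34287823), had 863, 1869 and 1347 CPM in pMCAO 1 to pMCAO 3, against 3254, 4109, 2242 and 2770 CPM in Sham 1 to Sham 4. The log2 change of H2-Aa was -1.19 (SE 0.27, edgeR adjusted p = 0.0957). For both chains the groups did not overlap, with pMCAO 2 the highest of its group and Sham 3 the lowest of its own.

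Cd74 was the most abundant of the 10 genes. It had 1668, 2808 and 1329 CPM in pMCAO 1 to pMCAO 3, against 4755, 6921, 4262 and 5152 CPM in Sham 1 to Sham 4. The lowest sham library lay 1454 CPM above the highest pMCAO library. Its log2 change was -1.45 (SE 0.26, edgeR adjusted p = 0.0527), just short of the threshold, and it passed in 8 of 18 other settings, in which its adjusted p ran between 8.74e-06 and 0.695. Cd74 (ENSMUSG00000024610) lies on chromosome 18 from 60803848 to 60812652, apart from the H2 genes on chromosome 17.

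Ciita had the narrowest spread of the 10. Its levels were 73.5, 73.1 and 81.2 CPM in pMCAO 1 to pMCAO 3, against 173, 152, 145 and 165 CPM in Sham 1 to Sham 4. The SD was 6.0% of the mean after pMCAO and 7.92% after sham surgery, whereas for Cd74 it was 40.1% after pMCAO and 22.0% after sham surgery. Ciita (ENSMUSG00000022504, chromosome 16, 10480059 to 10528418) had a log2 change of -1.06 (SE 0.17, edgeR adjusted p = 0.0240). It ranked 9 of all genes by p, ahead of H2-Eb1 at 15, although its change was smaller. The call was lost in 7 of 18 other settings, among them without Sham 4 (adjusted p = 0.0983), pMCAO 1 (0.187) or pMCAO 3 (0.0541), when libraries were scaled to macrophage markers (0.172), with offsets for GC content and length (0.0505) and with the stromal score (0.695), with log2 changes between -1.12 and -0.89. Over all 18 its adjusted p ran between 4.54e-06 and 0.695. The gene overlaps Dexi on the opposite strand, with 0.324% of its windows of 100 bases shared, and whether the counting used strand is not given in the sources used here.

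The DM chaperone genes had lower means, with log2 changes between -1.24 and -1.04 and none past the threshold. H2-DMa, the alpha chain of DM (chromosome 17, 34119541 to 34139101), had 142, 168 and 49.2 CPM in pMCAO 1 to pMCAO 3, against 247, 384, 215 and 287 CPM in Sham 1 to Sham 4. Its groups did not overlap, and pMCAO 3 stood far below the other pMCAO libraries. The log2 change was -1.24 (SE 0.36, edgeR adjusted p = 0.192). H2-DMb1, a beta chain of DM, had 67.8, 112.1 and 46.8 CPM in pMCAO 1 to pMCAO 3, against 185, 211, 111.9 and 162 CPM in Sham 1 to Sham 4. Its groups overlapped at pMCAO 2 and Sham 3, whose levels were nearly equal, and the log2 change was -1.15 (SE 0.28, edgeR adjusted p = 0.124). H2-DMb2, the second beta chain gene, was much less abundant, at 6.92, 15.7 and 2.75 CPM in pMCAO 1 to pMCAO 3, against 31.2, 20.5, 8.73 and 9.54 CPM in Sham 1 to Sham 4. Its log2 change was -1.04 (SE 0.57, edgeR adjusted p = 0.447), with pMCAO 2 above 2 sham libraries.

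The DM genes carry a limit of counting. Transcripts of H2-DMb1 and H2-DMb2 (GENCODE M21) share 179 windows of 100 bases, which is 11.3% of those of H2-DMb1 and 10.3% of those of H2-DMb2, so their reads could be split between the copies. H2-DMa shares 6.58% of its windows with Brd2 on the opposite strand. No such window was shared by H2-Aa, H2-Ab1, H2-Eb1, H2-Ob or Cd74.

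The DO genes, whose product is known mainly from B cells and thymic epithelium, were the least abundant per exon length. H2-Ob, the beta chain of DO, had 11.02, 20.8 and 21.3 CPM in pMCAO 1 to pMCAO 3, against 59.3, 44.0, 27.7 and 26.3 CPM in Sham 1 to Sham 4. Its groups did not overlap, and the log2 change was -1.15 (SE 0.33, edgeR adjusted p = 0.175). H2-Oa, the alpha chain, had 2.14, 5.23 and 0.561 CPM in pMCAO 1 to pMCAO 3, against 5.29, 9.25, 3.68 and 2.42 CPM in Sham 1 to Sham 4. Its groups overlapped, with pMCAO 2 above 2 sham libraries, and the log2 change was -0.95 (SE 0.69, edgeR adjusted p = 0.574). Counts of H2-Oa were as low as 10 in pMCAO 3, and 8.98% of its windows are shared with the antisense gene BC051537.

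B cell markers varied between libraries without one order, in cells sorted as CX3CR1-GFP+, a gate that most B cells do not meet. Ms4a1, which encodes CD20, was at 16.7, 15.96 and 27.4 CPM in pMCAO 1 to pMCAO 3, against 82.2, 29.0, 16.998 and 4.26 CPM in Sham 1 to Sham 4. The 11 B cell markers used together summed to 473 to 627 CPM after pMCAO and 467 to 1668 CPM after sham surgery, and none was at 0 in any library. The sum of 1668 CPM was that of Sham 1, in which the plasma cell gene Jchain alone had 975 CPM. Sham 1 was also the highest library for H2-Ob, H2-DMb2 and Ms4a1, whereas H2-Oa and the B cell genes Cd79b (56.5 CPM) and Ighm (666 CPM) were highest in Sham 2, and Ebf1 (37.4 CPM) in pMCAO 1. Without Sham 1 the log2 changes were -0.60 for H2-DMb2 (adjusted p = 0.632), -0.94 for H2-Oa (0.578) and -0.88 for H2-Ob (0.210), and that of H2-Oa was -0.51 without Sham 2 (0.864) and -0.47 without pMCAO 3 (0.846). Leaving out pMCAO libraries moved these values as much, with -0.62 for H2-DMb2 without pMCAO 3 (0.739), -1.87 for H2-DMb2 without pMCAO 2 (0.141) and -0.90 for H2-Ob without pMCAO 1 (0.357). The part of B cells in these values was not tested.

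**Figure D2:**
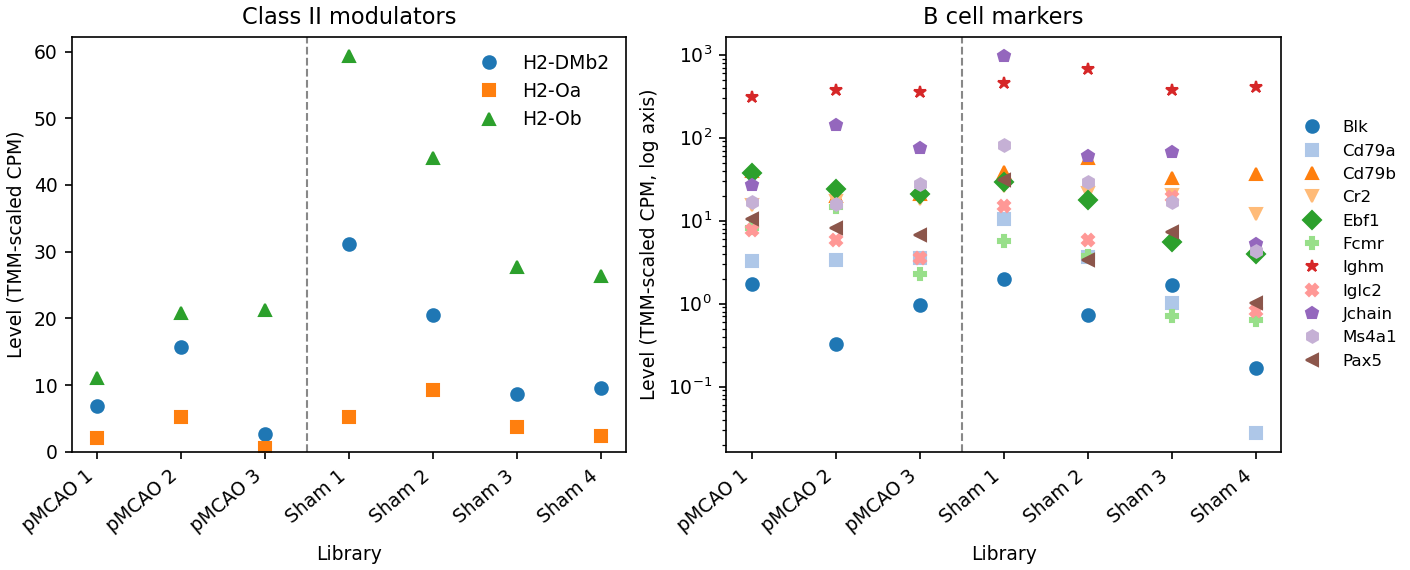
Levels in each library, in TMM-scaled CPM, of H2-DMb2, H2-Oa and H2-Ob (left, linear axis) and of the 11 B cell markers (right, log axis), with pMCAO libraries left of the dashed line and sham libraries right of it. Sham 1 holds the highest points of H2-Ob (59.3 CPM), H2-DMb2 (31.2 CPM) and Jchain (975 CPM), and Sham 2 those of H2-Oa (9.25 CPM) and Ighm (666 CPM).

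Dendritic cells carry more class II than most macrophages, and the summed level of their markers overlapped between the groups. The 12 dendritic cell markers summed to 195 to 337 CPM after pMCAO and 239 to 429 CPM after sham surgery. Flt3, the growth factor receptor of dendritic cells, was at 16.8 ± 3.03 CPM after pMCAO (SD, n = 3) and 18.7 ± 8.42 CPM after sham surgery (SD, n = 4), and Zbtb46, a transcription factor of conventional dendritic cells, at 27.9 ± 3.95 CPM after pMCAO and 27.2 ± 5.74 CPM after sham surgery. Others had lower means, with overlapping groups: Batf3, a transcription factor of cross-presenting dendritic cells, was at 12.9 ± 5.22 CPM after pMCAO and 25.9 ± 5.10 CPM after sham surgery (log2 change -1.01), and Cd209a at 43.5 ± 20.7 CPM after pMCAO and 87 ± 35.9 CPM after sham surgery (-0.999). Xcr1, a chemokine receptor of the same cells as Batf3, had a log2 change of -0.74, and Itgae 1 of -0.82. Clec9a, another marker on the list, went the other way (0.38), at 14.1 ± 10.6 CPM after pMCAO and 10.8 ± 4.53 CPM after sham surgery. None of the 12 passed with edgeR (Batf3 and Cd209a at an unadjusted p under 0.05), DESeq2 or limma-voom, and 6 of the 12 had lower means. All 12 were counted in all 7 libraries, and the part of dendritic cells in the class II values was not tested.

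Most markers of macrophages in general had lower means, by a smaller median amount than the class II genes. Markers of fibroblasts and blood endothelium, used for the stromal score, had higher means. Of 20 macrophage markers 17 had lower means, with a median log2 change of -0.36, and their sums were 23881 to 26627 CPM after pMCAO and 25171 to 34824 CPM after sham surgery. None of the 20 passed with edgeR or limma-voom, and Fcgr1, C1qa, C1qb and C1qc fell with DESeq2. At an unadjusted p under 0.05 by edgeR 8 were lower and 2 were higher, Mertk (log2 change 0.54) and Cd163 (0.56). The edgeR log2 changes of C1qa (-0.97) and C1qb (-0.92) lay below -0.9, as did those of the class II genes. As a percentage of the macrophage marker sum within a library, the 10 class II genes came to 15.6%, 27.9% and 17.2% in pMCAO 1 to pMCAO 3, against 51.4%, 54.2%, 33.2% and 39.6% in Sham 1 to Sham 4, without overlap. With each library scaled to the macrophage markers, the median log2 change of the 10 was -1.05, against 0.11 over all genes. Of the 10, H2-Eb1 alone passed in that fit, in which 0.296% of all genes passed. All 11 measured fibroblast markers and all 11 blood endothelial markers had higher means after pMCAO. None of these passed with edgeR (7 fibroblast and 6 endothelial markers at an unadjusted p under 0.05) or limma-voom, while Col1a2, Pdgfra, Cdh5, Flt1, Tek and Emcn rose with DESeq2. Prg4 and F5 on the list of large peritoneal macrophages and F13a1 on the monocyte list rose with DESeq2 too. The fibroblast sums were 113 to 572 CPM after pMCAO and 67.0 to 186 CPM after sham surgery, and the endothelial sums 424 to 591 CPM after pMCAO and 138 to 384 CPM after sham surgery. The 7 measured markers of large peritoneal macrophages summed to 51.7 to 110.1 CPM after pMCAO and 26.3 to 41.1 CPM after sham surgery, also without overlap. Of these 7, 6 had higher means, with Garnl3 nearly unchanged (log2 change 0.04) and Icam2 lower (-0.32). Gata6 and Serpinb2 of that list were not in the count table. The 8 monocyte markers summed to 2352 to 3149 CPM after pMCAO and 1573 to 2428 CPM after sham surgery. Much of that sum was F13a1, at means of 1668 CPM after pMCAO and 1040 CPM after sham surgery. Of these 8, 6 had higher means, whereas Ly6c2 (-0.32) and Plac8 (-0.51) had lower means. The part of large peritoneal macrophages and monocytes in the class II values was not tested. With the stromal score in the model all 10 kept a lower level after pMCAO, with a median of -1.14. None passed with edgeR (8 at an unadjusted p under 0.05). Over all 17209 genes 0 passed in that edgeR fit, with 1109 at an unadjusted p under 0.05. The score itself largely went with the group, at 1.81, 0.62 and 1.39 in pMCAO 1 to pMCAO 3. In Sham 1 to Sham 4 the score was -0.13, 0.84, -0.41 and -0.30, so only pMCAO 2 and Sham 2 broke the order. That fit therefore cannot tell the part of stromal cells from that of the surgery.

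**Figure D3:**
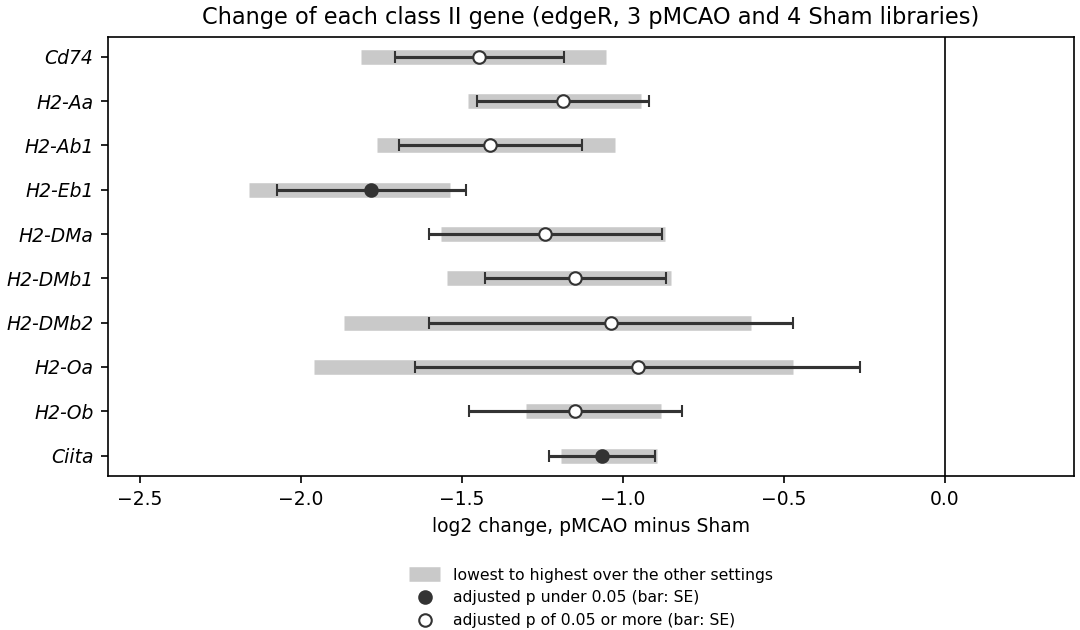
The log2 change (pMCAO minus sham) of each gene with its SE, over 3 pMCAO and 4 sham libraries; filled points have an adjusted p under 0.05 and grey bars run from the lowest to the highest value over the other settings tried. All grey bars lie below 0, and they are widest for H2-DMb2 (-1.87 to -0.60) and H2-Oa (-1.96 to -0.47).

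The libraries of a group did not rank alike for every gene. Sham 2 was the highest sham library for 7 of the 10 genes and Sham 1 for the other 3, while Sham 3 was the lowest for 8. After pMCAO, library pMCAO 2 was the highest for 8 of the 10 and pMCAO 3 the lowest for 6. Ciita did not follow this order: pMCAO 2 was its lowest pMCAO library, by a margin of under 1 CPM from pMCAO 1. Without pMCAO 2 the median log2 change of the 10 genes was -1.66, and 6 of them passed. Calls over all genes rose as well, to 100 (0.581%) from 17 with all 7 libraries (0.0988%).

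**Figure D4:**
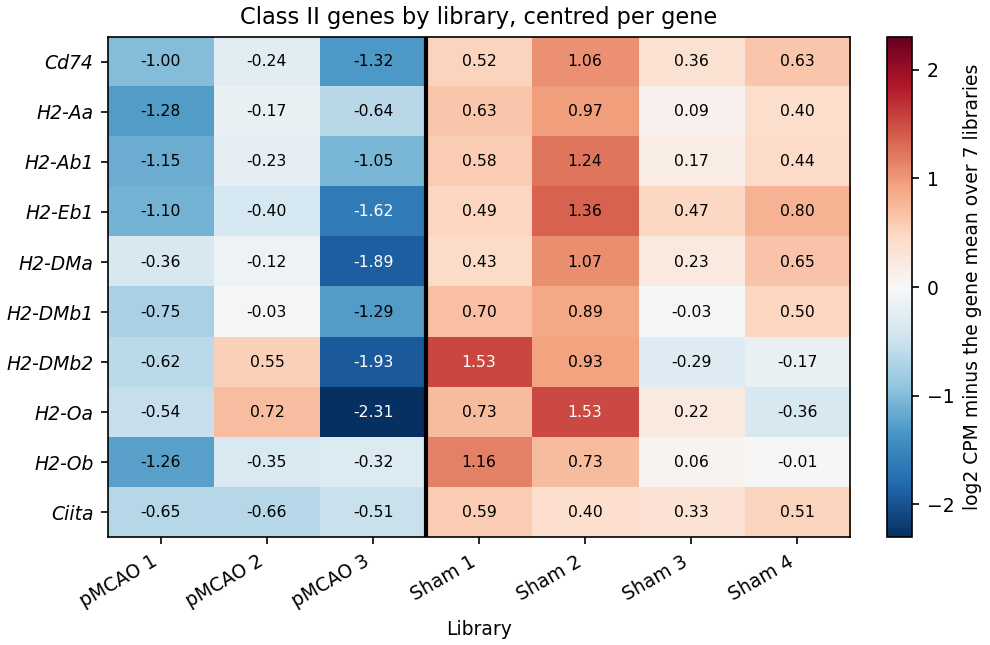
Log2 CPM of each gene in each library minus the mean of that gene over 7 libraries, with pMCAO libraries left of the black line. Values are below 0 in all pMCAO libraries except H2-DMb2 and H2-Oa in pMCAO 2, and lowest for H2-Oa in pMCAO 3 (-2.31).

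Whether the genes were lower by unequal amounts was asked with ratios of counts inside each library, which need no scaling. There were 6 ratios, tested with a two-sided exact permutation test that cannot go below p = 0.0571 for 3 against 4 libraries. The ratio of H2-Eb1 to H2-Ab1 was 0.521, 0.443 and 0.338 in pMCAO 1 to pMCAO 3, against 0.469, 0.545, 0.621 and 0.643 in Sham 1 to Sham 4. On the log2 scale the difference was -0.40 (exact permutation p = 0.114, 0.686 adjusted over 6), and the groups overlapped. The ratio of Cd74 to H2-Ab1 was 1.93, 1.71 and 1.44 in pMCAO 1 to pMCAO 3, against 1.65, 1.52, 1.98 and 1.98 in Sham 1 to Sham 4 (log2 difference -0.08, exact permutation p = 0.629). For H2-DMa to H2-Ab1 the ratio ran over 0.165, 0.102 and 0.0532 in pMCAO 1 to pMCAO 3, against 0.0845 to 0.110 in the sham libraries (log2 difference 0.03, exact permutation p = 0.971). The log2 differences of the other 3 were 0.20 for H2-Aa to H2-Ab1, 0.19 for H2-DMb1 to H2-DMa and 0.43 for Ciita to Cd74, with exact permutation p of 0.343, 0.514 and 0.343 (adjusted p over all 6 between 0.686 and 0.971). Since no ratio could pass 0.05 in this design, these values do not show that the genes were lower by equal amounts. The SD of the log2 ratio of H2-Eb1 to H2-Ab1 was 0.31 after pMCAO (n = 3) and 0.21 after sham surgery (n = 4).

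Levels were compared between genes per kilobase of exon. In sham libraries Cd74 led with 3140 ± 690 CPM per kilobase (SD, n = 4), above all libraries of the next gene. H2-Ab1 (1185 ± 406), H2-Eb1 (879 ± 274) and H2-Aa (815 ± 209) followed with overlapping ranges. The DM genes stood lower, with H2-DMb1 at 99.7 ± 25.2 and H2-DMa at 82.2 ± 21.2 CPM per kilobase, and Ciita at 16.7 ± 1.32 overlapped H2-DMb2 (10.002 ± 6.05). H2-Ob (7.31 ± 2.89) and H2-Oa (3.67 ± 2.11) were last and overlapped each other. After pMCAO the order differed only in H2-Aa (358 ± 132 CPM per kilobase, SD, n = 3) standing before H2-Eb1 (256 ± 109), and these ranges overlapped too.

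**Figure D5:**
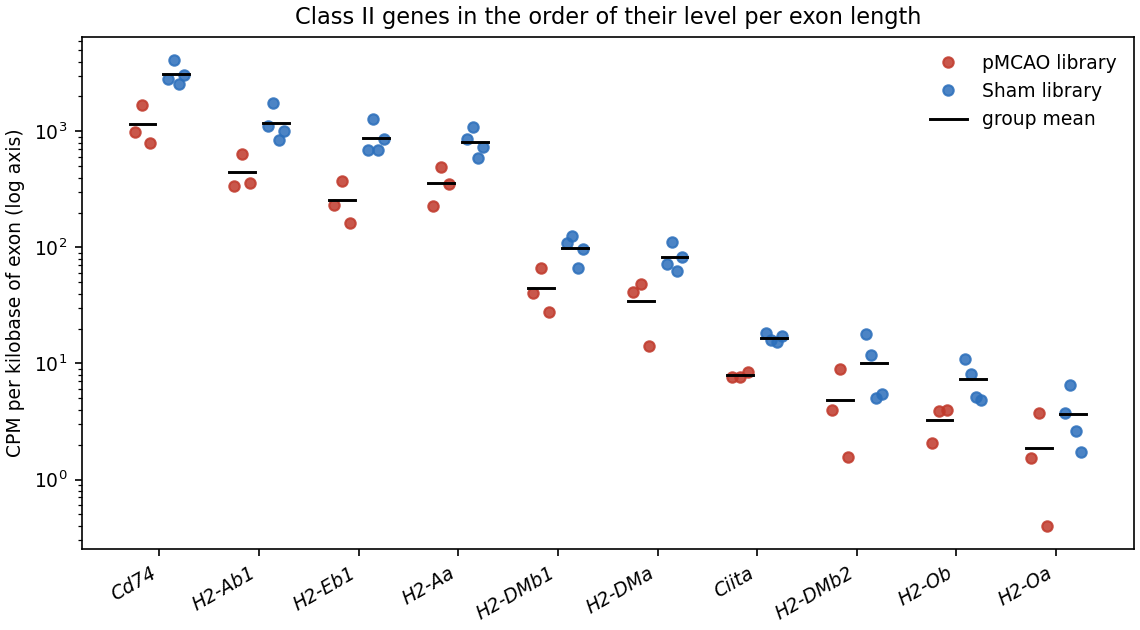
Level of each gene in each library in CPM per kilobase of exon, on a log axis, with genes in the order of their sham mean and pMCAO libraries (red) left of sham libraries (blue). Cd74 stands at the left end, at a mean of 1152 after pMCAO and 3140 after sham surgery, and H2-Oa at the right end, at 1.88 after pMCAO and 3.67 after sham surgery.

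Genes that act around class II were described by 8 lists of 81 measured genes, of which 0 passed with edgeR (24 at an unadjusted p under 0.05), 0 with limma-voom and 6 with DESeq2 (1 higher and 5 lower). Over all genes the shares in either direction were 13.4% at an unadjusted p under 0.05, 0.203% with limma-voom and 2.77% with DESeq2. The SDs given for these genes are over 3 pMCAO and 4 sham libraries. Members of the X and Y box complexes and their cofactors showed no common direction, with 6 of 12 lower and a median log2 change of 0.03. Rfx5, a subunit of RFX, was at 14.9 ± 2.96 CPM after pMCAO and 20.7 ± 3.63 CPM after sham surgery (adjusted p = 0.469), and Creb1 at 242 ± 29.8 CPM after pMCAO and 192 ± 15.3 CPM after sham surgery (0.381). The coactivator Ncoa1 was at 219 ± 38.1 CPM after pMCAO and 137 ± 17.6 CPM after sham surgery (log2 change 0.68, SE 0.18, adjusted p = 0.141 by edgeR), and rose with DESeq2.

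Of 12 measured genes that regulate Ciita or signal to it, Prdm1 among them, 9 had lower means, with a median log2 change of -0.27. Ifngr2, a chain of the interferon-gamma receptor, was at 85 ± 18.6 CPM after pMCAO and 135 ± 21.4 CPM after sham surgery (log2 change -0.66, SE 0.20, edgeR adjusted p = 0.192). Irf8, a transcription factor of macrophages and dendritic cells, was at 117 ± 8.42 CPM after pMCAO and 157 ± 16.4 CPM after sham surgery (-0.43, adjusted p = 0.277), and Usf1, a factor that binds a Ciita promoter, at 13.5 ± 4.54 CPM after pMCAO and 21.7 ± 2.79 CPM after sham surgery (-0.68, adjusted p = 0.339). Among regulators of the interleukin-10 and TGF-beta pathways, 7 of 10 had lower means. Tgfb1, a cytokine that represses Ciita, was at 29.1 ± 14.7 CPM after pMCAO and 58.2 ± 11.6 CPM after sham surgery (log2 change -0.999, SE 0.30, edgeR adjusted p = 0.190) and fell with DESeq2. Il10ra, the ligand-binding chain of the interleukin-10 receptor, was at 142 ± 14.96 CPM after pMCAO and 203 ± 25.4 CPM after sham surgery (adjusted p = 0.214), and its partner Il10rb at 127 ± 14.8 CPM after pMCAO and 169 ± 36.3 CPM after sham surgery (0.388).

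Endosomal proteins that prepare peptides went both ways, with 9 of 12 lower and a median log2 change of -0.35. Cst3, the secreted inhibitor of cysteine cathepsins, was at 1092 ± 377 CPM after pMCAO and 1867 ± 418 CPM after sham surgery (-0.77, SE 0.25, edgeR adjusted p = 0.216). Ctsl, a cysteine protease that can degrade the invariant chain, was at 263 ± 80.4 CPM after pMCAO and 166 ± 18.2 CPM after sham surgery (0.67, SE 0.20, adjusted p = 0.190), and Npc2, a lysosomal cholesterol carrier, at 214 ± 57.0 CPM after pMCAO and 304 ± 54.6 CPM after sham surgery (0.320). Of 10 measured genes of class II turnover and traffic 7 had lower means, with a median of -0.19. Cd83, whose protein protects class II from ubiquitination by the ligase MARCH1, was at 49.8, 57.6 and 61.8 CPM in pMCAO 1 to pMCAO 3, against 85.8, 141, 112 and 128 CPM in Sham 1 to Sham 4, without overlap. Its log2 change was -1.05 (SE 0.20, edgeR adjusted p = 0.0607). The tetraspanins Cd81 (log2 change -0.64, SE 0.18, adjusted p = 0.164) and Cd82 (-0.96, SE 0.28, adjusted p = 0.174), membrane organisers that associate with class II, had lower means too, and Cd81, Cd82 and Cd83 fell with DESeq2.

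Costimulatory and checkpoint genes went both ways, with 6 of 11 lower and a median log2 change of -0.12. Cd86, a ligand of CD28, was at 415 ± 67.3 CPM after pMCAO and 326 ± 43.5 CPM after sham surgery (adjusted p = 0.411). Icosl, the ligand of ICOS, was at 132 ± 14.2 CPM after pMCAO and 181 ± 22.3 CPM after sham surgery (0.267), and Havcr2, which encodes the checkpoint receptor TIM-3, at 46.3 ± 10.7 CPM after pMCAO and 33.7 ± 5.22 CPM after sham surgery (0.392). Of the 6 genes of the ligands and receptors that pair with CD74 at the cell surface 4 had lower means. Cxcr4, a chemokine receptor, was at 45.4 ± 4.01 CPM after pMCAO and 30.7 ± 9.33 CPM after sham surgery (adjusted p = 0.362), Ackr3 at 7.23 ± 0.887 CPM after pMCAO and 4.16 ± 3.41 CPM after sham surgery (0.599) and Cxcr2 at 0.379 ± 0.435 CPM after pMCAO and 1.15 ± 0.934 CPM after sham surgery (0.568). Of 8 other measured genes of the class II region 6 had lower means, each at an unadjusted p under 0.05 by edgeR, with a median of -0.70. Psmb9, an immunoproteasome subunit, was at 41.3 ± 11.1 CPM after pMCAO and 73.2 ± 15.5 CPM after sham surgery (-0.82, SE 0.24, edgeR adjusted p = 0.177), and Tap1, a chain of the peptide transporter of class I, at 55.2 ± 15.7 CPM after pMCAO and 89.9 ± 11.1 CPM after sham surgery (-0.70, SE 0.22, adjusted p = 0.197). Btnl2, a butyrophilin-like gene of the class II region, was at 1.45 ± 0.939 CPM after pMCAO and 5.60 ± 1.98 CPM after sham surgery (-1.95, SE 0.60, edgeR adjusted p = 0.192) and fell with DESeq2.

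The 5 other genes of at least 5 CPM whose profile over the 7 libraries lay nearest to the median profile of the class II genes were Ppard, Ccl12, Dus1l, Psmb10 and Mrpl34. Likeness was the root mean square difference of log2 CPM after centring each gene, over 11579 genes compared, and it was 0.18 to 0.21 for these 5. Within the class II genes it ran between 0.11 for Cd74 and 0.65 for H2-Oa, with 0.43 for Ciita. Ccl12, a monocyte chemoattractant, was at 269 ± 82.7 CPM after pMCAO and 810 ± 287 CPM after sham surgery, and Psmb10, an immunoproteasome subunit, at 40.4 ± 13.8 CPM after pMCAO and 87.7 ± 22.3 CPM after sham surgery. Ppard, a nuclear receptor, was at 8.68 ± 3.41 CPM after pMCAO and 18.1 ± 3.47 CPM after sham surgery. Dus1l, an enzyme of RNA modification, was at 9.05 ± 2.64 CPM after pMCAO and 21.9 ± 4.23 CPM after sham surgery, and Mrpl34, a mitochondrial ribosomal protein, at 9.84 ± 5.67 CPM after pMCAO and 20.2 ± 5.39 CPM after sham surgery. These 5 were picked for their likeness over the same libraries, so no test of them is given.

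The authors' deposited table ranks class II genes first. In the authors' deposited table H2-Ab1, H2-Eb1, Cd74, H2-Aa and H2-DMb1 have an FDR under 0.05, among 14 genes in all (0.0814%). The log2 fold changes of the authors' deposited table are -2.34 for H2-Ab1, -2.73 for H2-Eb1, -2.22 for Cd74, -1.92 for H2-Aa and -1.94 for H2-DMb1, each further from 0 than the value fitted here. H2-DMa (-2.26), H2-DMb2 (-2.32), H2-Ob (-1.45) and H2-Oa (-3.17) have an FDR between 0.0840 and 0.160 in the authors' deposited table. Ciita, at -0.97 with an FDR of 0.158 in the authors' deposited table, is nearer to 0. The authors' model is not given in the sources used here, and the cause of the difference was not tested.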

How the data were processed

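RNA of sorted muscularis macrophages was sequenced in 7 libraries. Libraries were built from 2.0 ng RNA and read as pairs of 100 bases, per the labels' protocols. The authors deposited a read count per gene; the submitters' processing notes name STAR, featureCounts, limma and the builds GRCm38 and mm10. Their versions, the strand setting and the annotation release were not given in the sources used here. The deposited CPM values equal count over library total, to within 0.0005. The log2 fold changes, mean log2 expression, p-values and FDR in the deposited table are the authors'. Each listed gene exceeds 0.5 CPM in at least 4 libraries, so genes seen only after pMCAO would not be listed.

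Counts were tested on the whole table with edgeR 4.0.16 (quasi-likelihood F test, robust, TMM factors, filterByExpr, group as only term) in R 4.3.3, two-sided, with Benjamini-Hochberg adjustment over 17209 genes at 0.05. The common biological coefficient of variation of these libraries was 43.6%. The script was checked on counts simulated with a smaller value, so the check does not show how the test behaves at their spread. Printed CPM are TMM-scaled, with SDs over libraries, and the SE is the log2 change over the square root of F. The limit set by 3 counts ran between 0.0825 CPM (Sham 4) and 0.256 CPM (pMCAO 1). It reflects counting error alone, since no molecular identifiers are recorded. Ratios were compared with SciPy 1.17.1. Alternatives were other scalings and filters, DESeq2 1.42.0, limma-voom 3.58.1, a replicate block, a stromal score, offsets for GC content and exon length (mgcv 1.9.3) and leaving out each library.

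Exon length is the union of exons in GENCODE M21, which holds 99.52% of the identifiers on the same chromosome. Promoter letters are from RefSeq (GRCm38.p6). Named genes were all 10 members, the 3 of each related list with the smallest p, the 5 nearest profiles and markers of cell types; the cell type markers named are from the marker lists, chosen after their values were seen. The members and lists were chosen with earlier results of these data known. A further B cell marker is not reported here and is left out of the B cell sum.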

Additional observations from a re-analysis of the deposited data

How the results depend on the processing

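All 10 class II genes kept a lower level after pMCAO under all 18 other settings in which they were tested, with a median log2 change between -1.66 and -1.01. These 18 include the fit without a low-count filter, which equals the main fit because the filter removed no gene. With offsets for GC content and length, the log2 change of Cd74 was -1.05, against -1.45 without them. That of H2-Ab1 was -1.03, against -1.41, and that of H2-DMb1 -0.85, against -1.15. H2-Aa (-1.20) and H2-Ob (-1.23) were the only ones of the 10 whose change was not smaller with these offsets. How many passed did depend on the setting. Of the 10, 8 passed with DESeq2, 4 with limma-voom, 4 over genes of at least 5 CPM (where H2-Oa is left out), 1 with libraries scaled to macrophage markers and 0 with the stromal score as a covariate (8 at an unadjusted p under 0.05 by edgeR). Over all genes 476 passed with DESeq2, 75 over genes of at least 5 CPM, 51 with macrophage scaling, 35 with limma-voom, 34 with upper-quartile factors, 33 after offsets for GC and length, 29 without scaling factors and 0 with the stromal score (1109 at an unadjusted p under 0.05 by edgeR). Macrophage scaling set the median of all genes at 0.11 and no scaling at -0.14, against -0.02 in the results above, where 12 genes were higher and 5 lower. The split was 46 higher and 5 lower with macrophage scaling and 14 higher and 15 lower without scaling. Leaving out 1 library, 0 to 6 of the 10 genes and 0 to 100 of all genes passed, and the median of the 10 lay between -1.66 and -1.06. None of the 10 passed without Sham 4, pMCAO 1 or pMCAO 3, where 8 of the 10 had an unadjusted p under 0.05 by edgeR. With the replicate block 4 passed (H2-Ab1, H2-Eb1, H2-DMb1 and Cd74, but not Ciita, adjusted p = 0.0738 by edgeR), with a median of -1.38, and 21 of all genes. No label says that equal numbers pair the samples. Deviations of same-numbered libraries correlated at -0.08, -0.01 and 0.10, against -0.06 to 0.08 for the other pairs, which cannot exclude a pairing. In the block fit Sham 4 has no pMCAO library of its number and so adds nothing to the comparison. Depth limits H2-Oa, with 10 to 215 counts per library. The causes were not tested.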

Other observations

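The makeup of the class II counts differed between libraries. Cd74 supplied 40.2%, 37.7% and 32.3% of the counts of the 10 genes in pMCAO 1 to pMCAO 3, against 36.8%, 36.7%, 40.5% and 40.1% in Sham 1 to Sham 4. H2-Aa supplied 32.7% in pMCAO 3, above the 20.8% and 25.1% of pMCAO 1 and pMCAO 2 and the 21.3% to 25.2% of the sham libraries. In the same library H2-Eb1 supplied 7.61% and H2-DMa 1.20%, the lowest shares of these genes in the 7 libraries, whereas pMCAO 1 held the highest share of H2-DMa, at 3.43%. Of the pMCAO libraries, pMCAO 3 is the library whose description names a pool. The GC content was 46.5% for H2-Aa, against 51.8% for H2-Eb1 and 55.1% for H2-DMa. Whether the pool or the GC content bears on this makeup was not tested.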
